A study of Mus musculus with 19 samples.

Results

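The hair-type keratins of the filiform papillae were examined in bulk RNAseq values of tongue epithelia from 19 mice. They were chosen by name as a list of 10 hard keratin genes, of which 9 had a row among the 24689 gene symbols and the other was not analysed here. The 9 genes were the type I keratins Krt31, Krt33a, Krt33b, Krt34, Krt35 and Krt36 and the type II keratins Krt81, Krt84 and Krt86. All 9 passed the filter on low values, which kept 22745 genes. The epithelia were collected 15 days after transgene induction from 5 N, 5 E, 3 Y and 6 EY mice. E mice carried Krt14-CreERT, LSL-rtTA and tetON_E6-E7, Y mice carried Krt14-CreERT, LSL-rtTA and tetON_YAP1S127A, and EY mice carried both effector transgenes with the same drivers. N mice 1, 2 and 3 carried Krt14-CreERT and LSL-rtTA with no effector, N mouse 4 carried LSL-rtTA without Cre recombinase, and N mouse 5 carried Krt14-CreERT and both effectors without rtTA. By the methods of the study, the mice were adult littermates in groups balanced for age and sex, carried a tetON_H2B-GFP reporter, received tamoxifen into the tongue and were fed doxycycline. The Krt14 promoter directs Cre recombinase, and with it the transgenes, to basal cells of the epithelium. Whole epithelium was lysed after enzymatic separation from the muscle, and fewer cells of a type and less RNA per cell cannot be told apart in such values.

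Keratins form the intermediate filaments of epithelial cells, and each filament is built from pairs of 1 acidic type I and 1 basic type II keratin. Most keratins of the tongue are soft epithelial keratins, while the hard or hair-type keratins, rich in cysteine, are crosslinked with keratin-associated proteins into the stiff structures of hair, nail and the spines of filiform papillae. Filiform papillae cover the upper surface of the tongue, and both Krt36 and Krt84 are known from these papillae. Krt31, Krt33a, Krt33b, Krt34, Krt81 and Krt86 are best known from the cortex of the hair shaft, and Krt35 from its matrix and early cortex.

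The levels are in transcripts per 1000000 (TPM), which are scaled by gene length and so allow genes to be compared within a mouse. Whole reads could be recovered from them, between 8269674 and 11007304 per mouse, with medians of 9637779 for N, 8848776 for E, 8679053 for Y and 9448942 for EY mice. Differences were tested with limma on log2(TPM + 0.1), so that log2 fold changes of genes near 0.1 TPM understate the change, and a gene was called differentially expressed (a DEG) at a p below 0.01 after Benjamini-Hochberg adjustment over all genes tested, with a log2 fold change above 1 in size. EY, Y and E were each compared with the same N mice. The interaction is the EY log2 fold change against N minus those of E and of Y.

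The type I genes lie on mouse chromosome 11 in the order Krt33a, Krt33b, Krt34, Krt31, Krt32, Krt35 and Krt36, where Krt32 is another hard keratin, and the type II genes lie on chromosome 15. Promoter sequences were matched in RefSeq (GRCm38.p6) for 5 of the 9 genes, namely Krt31, Krt33b, Krt34, Krt36 and Krt84, each with 250 bases before the annotated start and 50 after it. Those of Krt36 and Krt84, the most abundant gene of each type, and those of Krt31 and Krt34, which hold the same motifs, are shown 5′ to 3′ on the strand of the gene. Krt36 is at chr11:100105577-100105876, Krt84 at chr15:101532771-101533070, Krt31 at chr11:100050502-100050801 and Krt34 at chr11:100041505-100041804, all on the minus strand. Capitals mark each match on either strand to the TATA box letters TATAAA, to the HOXC13 letters TTTATG and, in their other form, TTAATG, to the LEF1 and TCF letters CTTTGA, to the TEAD letters CATTCC and to the AP-1 letters TGANTCA.
Krt36: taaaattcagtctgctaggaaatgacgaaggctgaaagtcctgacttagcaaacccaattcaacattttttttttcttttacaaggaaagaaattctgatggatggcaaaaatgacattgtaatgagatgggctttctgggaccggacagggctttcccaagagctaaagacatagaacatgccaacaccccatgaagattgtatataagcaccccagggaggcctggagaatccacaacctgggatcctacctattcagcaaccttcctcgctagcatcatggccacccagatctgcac
Krt84: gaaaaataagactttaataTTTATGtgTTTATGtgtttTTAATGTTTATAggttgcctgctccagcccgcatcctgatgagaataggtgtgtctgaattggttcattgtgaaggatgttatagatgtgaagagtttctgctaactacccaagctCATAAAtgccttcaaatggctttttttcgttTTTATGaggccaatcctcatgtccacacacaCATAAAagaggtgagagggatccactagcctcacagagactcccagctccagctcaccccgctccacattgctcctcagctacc
Krt31: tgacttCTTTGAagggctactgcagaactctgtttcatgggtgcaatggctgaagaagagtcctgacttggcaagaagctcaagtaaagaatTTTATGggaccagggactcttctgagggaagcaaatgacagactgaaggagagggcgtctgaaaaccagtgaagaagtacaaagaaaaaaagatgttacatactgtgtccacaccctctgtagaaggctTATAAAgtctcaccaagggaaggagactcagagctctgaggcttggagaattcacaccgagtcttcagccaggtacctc
Krt34: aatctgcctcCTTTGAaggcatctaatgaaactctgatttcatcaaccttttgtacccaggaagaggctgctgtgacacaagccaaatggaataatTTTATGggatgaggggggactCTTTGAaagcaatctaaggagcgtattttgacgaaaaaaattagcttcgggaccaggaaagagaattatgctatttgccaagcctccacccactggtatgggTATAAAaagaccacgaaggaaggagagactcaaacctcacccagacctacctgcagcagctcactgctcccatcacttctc

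The TATA box letters were found in 4 of the 5 promoters and in 13.6% of the 32817 mouse promoters of the same length. In Krt31, Krt34 and Krt33b they began 29, 31 and 47 bases before the start, while the match in Krt84 was on the opposite strand, 206 bases before it and directly next to the other HOXC13 form. The first HOXC13 form was likewise found in 4 of the 5 promoters, against 11.9% of all promoters. It began 158, 154 and 159 bases before the start in Krt31, Krt34 and Krt33b, and Krt84 held 5 matches, 3 on the strand of the gene and 2 on the other. The Krt84 match nearest the start, CATAAA on the opposite strand, began 34 bases before it. The LEF1 and TCF letters were found in Krt31, Krt33b and Krt34 (16% of all promoters) and the other HOXC13 form in Krt84 alone (8.84%). Krt33b, Krt34 and Krt31 are neighbouring genes whose transcripts share stretches of sequence, so their promoters cannot be counted as independent cases. The TEAD letters (14.7% of all promoters) and the AP-1 letters (7.81%) were in none of the 5 windows. The Krt36 window held no exact match to any of the 6 motifs. It holds tatataag, which is not an exact match to TATAAA, so the count does not show that it lacks a TATA box. A match is a description of the letters in this window.

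Krt36 was the most abundant member by far. In N epithelia it stood at 8371, 6536, 3151, 8416 and 7878 TPM in mice 1 to 5, and by its mean it was number 18 of all 24689 genes. E epithelia had 13459, 6473, 6654, 9731 and 7730.3 TPM in mice 1 to 5. The 2 groups overlapped, with N mouse 3 below every E mouse and E mice 1 and 4 above every N mouse. In Y epithelia Krt36 was at 1565, 2813 and 3130.2 TPM, and in EY epithelia at 105 to 849.9 TPM with a median of 329. Every EY mouse lay below every Y mouse, and the Y mice lay below the N mice only just, since the highest Y value was 3130.2 and the lowest N value 3151 TPM. By its mean, Krt36 was number 13 for E, 65 for Y and 290 for EY epithelia. The N mean of 6870.2 ± 2213 TPM (SD, n = 5) was 2.75 times the Y mean and 17.7 times the EY mean of 388 ± 265 TPM (n = 6).

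Krt35 had the smallest spread among N mice of the 9 genes, with an SD of 26.9% of the mean, and was at 300.2, 369, 165, 350.3 and 297 TPM in mice 1 to 5. It was at 384, 149, 181, 376 and 186 TPM in E epithelia and at 23.7, 123 and 93.6 TPM in Y epithelia. EY epithelia had 4.39 to 18.4 TPM with a median of 8.09. The N, Y and EY mice did not overlap, and Y mouse 1 stood well below the other 2 Y mice. The N mean of 296 ± 79.8 TPM (SD, n = 5) was 3.69 times the Y mean of 80.2 ± 51.1 (n = 3) and 32.5 times the EY mean of 9.10 ± 4.80 (n = 6).

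Krt34, next in abundance to Krt36 among the type I genes of N mice, was at 504, 534, 102, 515 and 282 TPM in N mice 1 to 5. The E mice had 874, 248, 308, 635 and 202 TPM and the Y mice 44.4, 137 and 119.5 TPM. The 6 EY mice ran from 1.46 to 23.8 TPM with a median of 11.7. The N and Y mice overlapped here, with N mouse 3 below 2 of the 3 Y mice, while the EY mice were below all others. EY mice 1, 2 and 3 had at most 3.81 TPM and EY mice 4, 5 and 6 at least 19.6 TPM.

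Krt31 was at 217, 199, 54.6, 163 and 153 TPM in N mice 1 to 5. In Y epithelia it was at 27.0, 52.7 and 53.3 TPM, and in EY epithelia at 2.05 to 18.6 TPM with a median of 4.65. Its Y mice lay below every N mouse, again only just below N mouse 3. The paralogs Krt33a and Krt33b were the least abundant members, with N means of 106 ± 57.8 and 87.8 ± 46.6 TPM (SD, n = 5). In EY epithelia Krt33a was at 0.273 to 6.82 TPM with a median of 4.02, and Krt33b at 0 to 5.49 TPM with a median of 1.11. EY mouse 3 had no read of Krt33b, which allows up to 0.329 TPM at a floor of 3 reads, for counting error only. In Y epithelia Krt33a was at 7.91, 30.1 and 22.3 TPM and Krt33b at 3.35, 19.2 and 11.2 TPM, and the lowest Krt33b value of Y lay within the range of EY. E mice had 70.2 to 322 TPM of Krt31, 49.3 to 253 TPM of Krt33a and 24.6 to 139 TPM of Krt33b, overlapping the N mice in each.

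Among the type II genes Krt84 was the most abundant, at 1592, 1165, 629, 1138 and 1165 TPM in N mice 1 to 5. The E mice had 2572, 1001, 1341.2, 1618.9 and 1345 TPM, and the Y mice 356, 492 and 649 TPM. In EY epithelia it was at 33.7 to 139 TPM with a median of 80.7. As for Krt36, the N and E mice overlapped and the EY mice lay below all others, but Y mouse 3 lay above N mouse 3. The N mean of 1138 ± 341 TPM (SD, n = 5) was 2.28 times the Y mean and 13.3 times the EY mean of 85.6 ± 41.3 TPM (n = 6), the smallest ratios among the 9 genes.

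Krt81 was at 449, 333, 88.3, 361 and 278 TPM in N mice 1 to 5, at 51.0, 108 and 118 TPM in Y mice and at 0.438 to 27.6 TPM in EY mice, with a median of 10.9. Krt86 was at 251, 254, 54.5, 245 and 157 TPM in the N mice, at 17.9, 64.0 and 50.3 TPM in the Y mice and at 0 to 10.6 TPM in the EY mice, with a median of 3.59. Both genes were lowest in EY mouse 3, with 3 reads of Krt81 and none of Krt86, where a floor of 3 reads allows up to 0.315 TPM. Their N and Y mice overlapped through N mouse 3, and their EY mice lay below all Y mice. In E epithelia Krt81 reached 203 to 808 TPM and Krt86 97.1 to 452 TPM, with medians of 323 and 172, and the E mice overlapped the N mice.

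**Figure D1:**
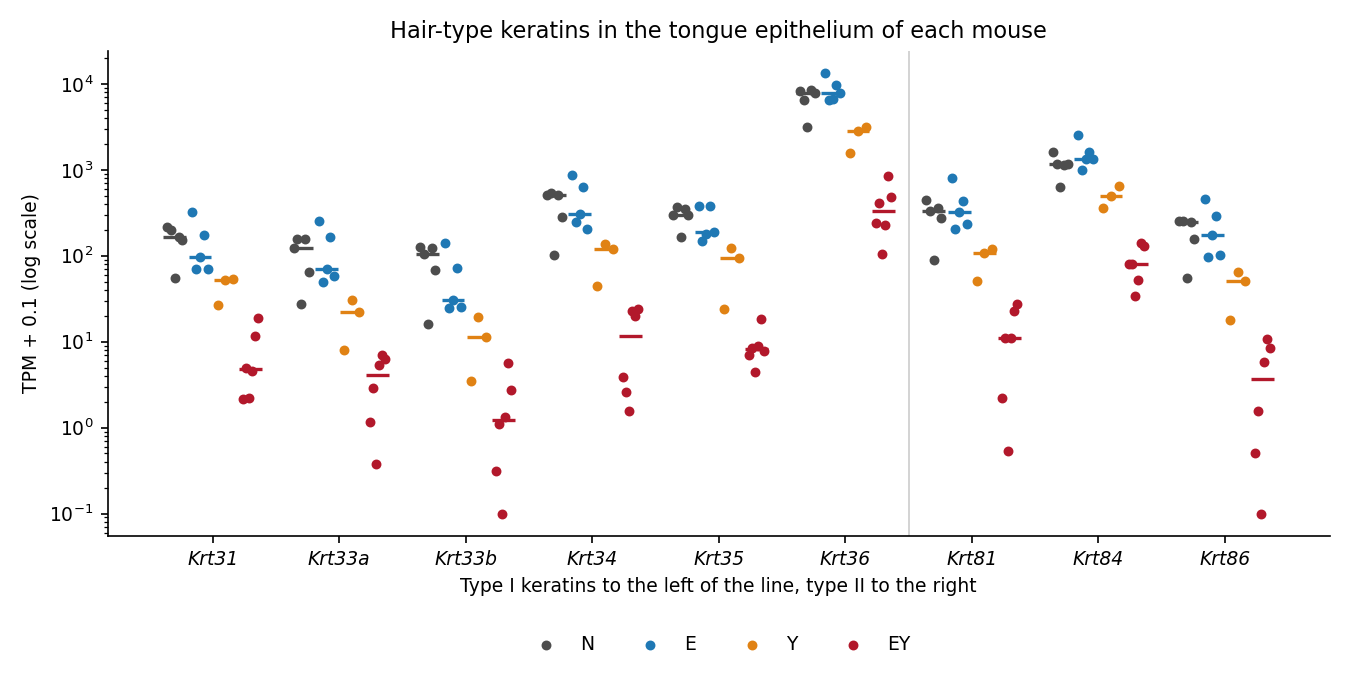
Level of each of the 9 hair-type keratins in each mouse, as TPM + 0.1 on a log scale, with 1 point for each of 5 N, 5 E, 3 Y and 6 EY mice and a line at the median of each group. N and E points overlap, all Y medians lie below the N medians, and every EY point lies below every N point, with Krt36 at 3151 to 8416 TPM in N and 105 to 849.9 TPM in EY mice.

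N mouse 3 was the lowest N mouse in all 9 genes, E mouse 1 the highest E mouse in all 9, Y mouse 1 the lowest Y mouse in all 9, and EY mouse 3 the lowest EY mouse in 8. E mouse 2 was the lowest E mouse in 8 genes. The highest mouse differed between genes in the other groups: N mouse 1 in 4 genes, 2 in 4 and 4 in 1, Y mouse 2 in 5 and 3 in 4, and EY mouse 5 in 6 and 6 in 3. Summed over the 9 genes, N mouse 3 had 4288 TPM and the other N mice 9652 to 11934 TPM, and E mouse 1 had 19263 TPM and the other E mice 8314 to 13494 TPM. Y mice had 2096, 3839.9 and 4247 TPM, and EY mice had 148 to 1084 TPM with a median of 434. Of all TPM, the 9 genes made up 0.954% ± 0.307 (SD, n = 5) for N, 1.2% ± 0.449 (n = 5) for E, 0.339% ± 0.114 (n = 3) for Y and 0.0525% ± 0.0334 (n = 6) for EY epithelia. The summed level behind these shares was 29112 to 98402 reads in N and 994 to 6994 reads in EY mice, and Krt36 and Krt84 had at least 558 and 384 reads in every mouse. Of the less abundant genes, Krt33a, Krt33b and Krt86 each had fewer than 10 reads in 2 of 6 EY mice, and Krt34 and Krt81 in 1.

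**Figure D2:**
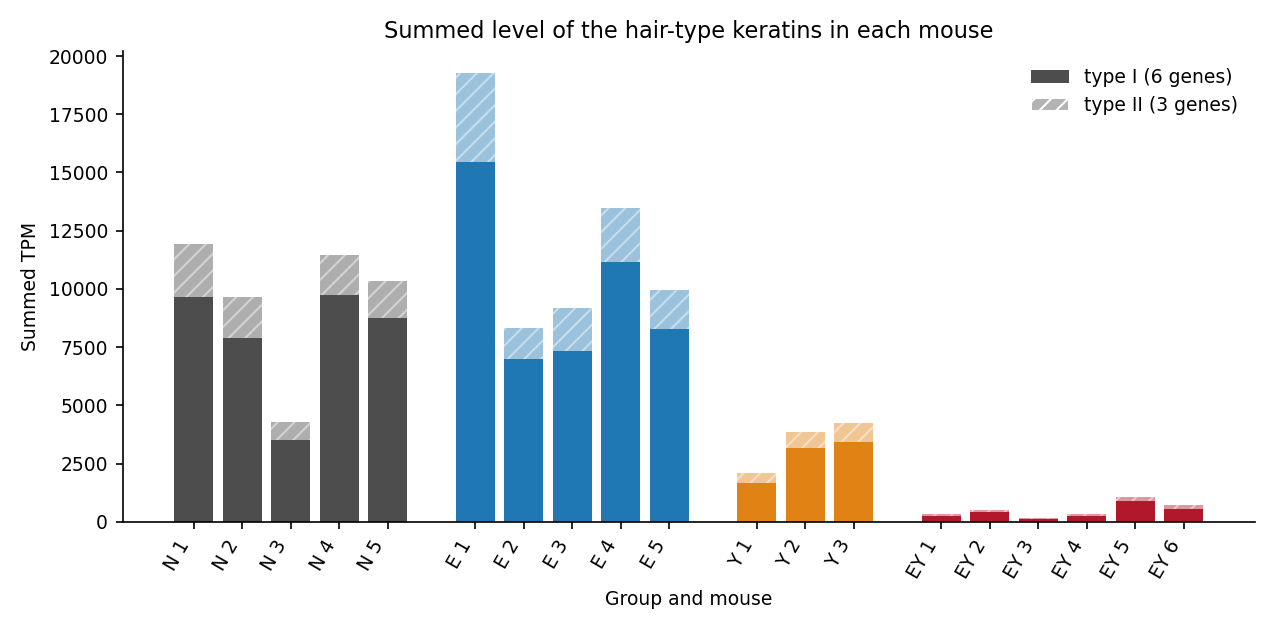
Summed TPM of the hair-type keratins in each of 19 mice, with the 6 type I genes as the solid and the 3 type II genes as the hatched part of each bar. N mouse 3, at 4288 TPM, stands at the level of the higher Y mice, and no EY mouse exceeds 1084 TPM.

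Krt36 alone accounted for 72.2% ± 3.29 (SD, n = 5) of the summed TPM for N, 74.0% ± 3.57 (n = 5) for E, 73.9% ± 0.719 (n = 3) for Y and 72.7% ± 4.79 (n = 6) for EY epithelia. Krt84 held 12.3% ± 1.84 for N, 13.1% ± 1.10 for E, 15% ± 2.09 for Y and 18% ± 4.46 for EY epithelia. The remaining 7 genes together held 15.6% ± 3.42 for N, 12.9% ± 3.48 for E, 11.1% ± 2.78 for Y and 9.36% ± 4.91 for EY epithelia, and the EY mice at 4.90% to 17.2% overlapped the N mice at 11.8% to 20.2%. The summed type I level was 4.86 ± 0.616 times the type II level for N, 4.62 ± 0.600 times for E, 4.31 ± 0.434 times for Y and 3.95 ± 0.882 times for EY epithelia, again with overlap between N and EY mice. These proportions are given without a test.

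EY epithelia were compared with N for the effect of both transgenes together. All 9 genes fell and were DEGs, where 5.71% of all genes tested were DEGs lower in EY than in N. Their log2 fold changes ran from -6.49 to -3.83 with a median of -5.11, while the median of all genes was 0.33. In all 9 the EY mice did not overlap the N mice, all of them being lower, which held for 6.49% of all genes. Krt36 was at a log2 difference of -4.35 (standard error 0.43, adjusted p = 3.32e-07) and Krt84 at -3.83 (standard error 0.34, adjusted p = 1.17e-07). Krt35 had the lowest adjusted p of the 9, at 4.12e-08, at a log2 fold change of -5.09 (standard error 0.42). The largest values were those of Krt86 at -6.49 (95% interval -8.57 to -4.42) and Krt33b at -6.23 (95% interval -8.11 to -4.35), both of which were at 0 in EY mouse 3, where the fitted value depends on the TPM added. With 1 TPM added the 9 values ran from -5.52 to -3.81, and all 9 were DEGs. After median-of-ratios scaling, all genes had a median of 0.011 for EY against N, and with it the 9 genes ran from -6.81 to -4.21 for EY against N, from -3.16 to -1.37 for Y against N, from -0.76 to 0.34 for E against N, from -4.50 to -2.84 for EY against Y and from -6.85 to -4.55 for EY against E.

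EY mouse 3, the lowest of its group in 8 of the 9 genes, also had the highest level of skeletal muscle markers, at 1473 TPM summed over 8 genes against 67.2 to 291 TPM in the other EY mice. Without this mouse the log2 fold changes of the 9 genes against N ran from -5.65 to -3.59, all of them DEGs. Without N mouse 3 they ran from -6.90 to -4.03, and with only N mice 1, 2 and 3, which have the driver genotype, from -6.34 to -3.78, in both cases all DEGs. The part of muscle tissue in the levels of these genes was not tested beyond this.

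Y epithelia were compared with N for the effect of active YAP alone. All 9 log2 fold changes were below 0, from -2.96 for Krt33b to -1.17 for Krt84, with a median of -1.88 against 0.13 for all genes. Krt35 alone was a DEG (1 of 9, against 1.11% of all genes that were DEGs lower in Y), with a log2 fold change of -2.13 (95% interval -3.19 to -1.07, adjusted p = 0.00732). The other 8 had adjusted p values from 0.0633 for Krt84 to 0.308 for Krt81, and 7 of the 9 had an unadjusted p below 0.05, where 7.9% of all genes were lower in Y at such a p. Krt36 was at -1.43 (standard error 0.52, adjusted p = 0.0686). Every Y mouse lay below every N mouse in Krt31, Krt35 and Krt36 (3 of 9, against 5.59% of all genes), and the standard errors of 0.41 to 1.18 were larger than for EY, with 3 Y mice in place of 6 EY mice.

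The call of Krt35 in Y epithelia depended on single mice. It was lost without Y mouse 1 (log2 fold change -1.41, adjusted p = 0.056), Y mouse 3 (adjusted p = 0.0153), EY mouse 2 (adjusted p = 0.0101), or N mouse 1 (adjusted p = 0.0143), 2 (adjusted p = 0.0159), 4 (adjusted p = 0.0179) or 5 (adjusted p = 0.0155), and it held without N mouse 3 (-2.33, adjusted p = 0.00587). With only N mice 1, 2 and 3 the adjusted p was 0.0417, and over all alternatives it ran from 0.000934 to 0.056. With limma voom on the recovered reads the adjusted p of all 9 genes in Y was at most 0.0479, and 1 of them, Krt35, was a DEG.

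E epithelia were compared with N for the effect of E6-E7 alone, and no hair-type keratin was a DEG (0 of 9 with limma, against 1.2% of all genes that were DEGs in either direction). None of the 9 had an unadjusted p below 0.05, which 14.8% of all genes had, and limma voom on the recovered reads likewise called 0. The log2 fold changes ran from -0.64 for Krt33b to 0.46 for Krt84, with 3 below 0 and a median of 0.15. The 95% interval of Krt84 was -0.30 to 1.21 and that of Krt36 -0.56 to 1.33, while that of Krt86 reached from -2.01 to 2.32. Without N mouse 3 the values ran from -1.18 to 0.26, and without E mouse 1 from -1.05 to 0.26, and in both cases Krt33a, Krt34 and Krt86 had values below 0, as Krt33a (-0.08) and Krt86 (-0.01) did without E mouse 4.

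**Figure D3:**
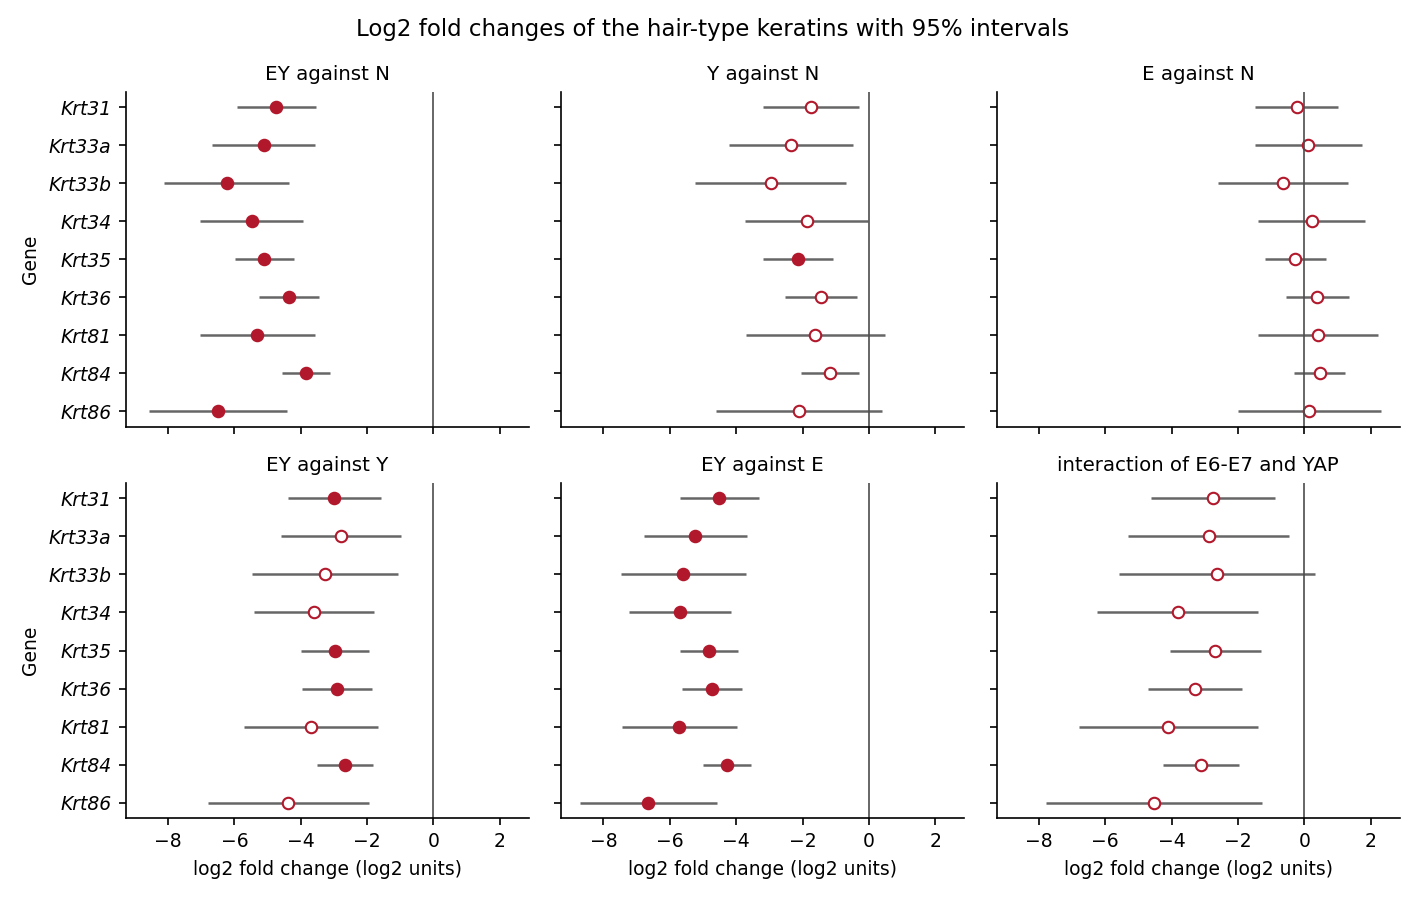
Log2 fold change of each hair-type keratin in the 5 comparisons of groups and in the interaction, with bars for the 95% intervals of limma and filled points for DEGs. All 9 points are filled for EY against N and EY against E, 4 for EY against Y, 1 for Y against N, and none for E against N or the interaction.

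EY epithelia were compared with E for the addition of active YAP to E6-E7. All 9 genes fell and were DEGs, with log2 fold changes from -6.64 to -4.29 and a median of -5.23, where 4.99% of all genes were DEGs lower in EY than in E and the median of all genes was 0.26. In all 9 the highest EY mouse was below the lowest E mouse (6.53% of all genes). Krt36 was at -4.74 (standard error 0.43, adjusted p = 2.75e-07) and Krt84 at -4.29 (standard error 0.34, adjusted p = 7.87e-08). Without E mouse 1 the 9 values ran from -6.32 to -4.09, all DEGs. Leaving out EY mouse 3 gave smaller falls, from -5.80 to -4.05, again all DEGs.

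EY epithelia were compared with Y for the addition of E6-E7 to active YAP. All 9 log2 fold changes were below 0, from -4.38 to -2.66 with a median of -2.99 against 0.18 for all genes, and 8 of 9 genes had every EY mouse below every Y mouse (3.37% of all genes), Krt33b being the exception. Of the 9 genes 4 fell as DEGs, namely Krt31, Krt35, Krt36 and Krt84, where 0.928% of all genes were DEGs lower in EY than in Y. Krt84 was at -2.66 (standard error 0.40, adjusted p = 0.000783), Krt36 at -2.92 (standard error 0.50, adjusted p = 0.00182) and Krt35 at -2.96 (standard error 0.49, adjusted p = 0.00134). Krt31, at -2.99 (standard error 0.66, adjusted p = 0.00929), was close to the threshold. The other 5 had adjusted p values from 0.014 for Krt34 to 0.061 for Krt33b, with standard errors of 0.85 to 1.15.

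The calls between EY and Y depended on the mice in the model, and Krt84 alone was a DEG whichever 1 mouse was left out. Without Y mouse 2 or Y mouse 3, 1 of the 9 genes was a DEG, Krt84, while Krt35 (adjusted p = 0.0128 and 0.0116), Krt36 (adjusted p = 0.0124 and 0.0136) and Krt31 (adjusted p = 0.0454 and 0.0439) were not. With only EY and Y mice in the model 0 of the 9 were DEGs, with adjusted p values of 0.0145 for Krt84, 0.0221 for Krt35, 0.0276 for Krt36 and 0.0442 for Krt31. Krt31 was no DEG in 19 of 32 alternatives, 15 of which leave out 1 mouse. Its adjusted p was 0.0115 to 0.0126 without N mouse 1, 2, 4 or 5, 0.0111 to 0.0128 without E mouse 2, 3, 4 or 5, 0.0248 without Y mouse 1 and 0.0153 to 0.0187 without EY mouse 1, 2, 3 or 4. Krt34 became a DEG without EY mouse 6 (adjusted p = 0.00944). Over all alternatives the adjusted p of the 9 genes ran from 8.37e-05 to 0.217.

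The interaction asks whether the log2 change in EY differs from the sum of those in E and Y. All 9 interactions were below 0, from -4.53 for Krt86 to -2.63 for Krt33b with a median of -3.11 against 0.08 for all genes, and 8 of the 9 had an unadjusted p below 0.05, where 6.04% of all genes had an interaction below 0 at such a p. None of the 9 passed both thresholds with limma (0 of 9, against 0.167% of all genes with an interaction called below 0). Krt84 was nearest, at -3.11 (standard error 0.54, 95% interval -4.25 to -1.98, adjusted p = 0.0105), followed by Krt36 at -3.31 (standard error 0.67, adjusted p = 0.0278), and the other 7 had adjusted p values of 0.0618 or more. With limma voom on the recovered reads Krt84 (adjusted p = 0.000694) and Krt36 (adjusted p = 0.00254) were called, and without EY mouse 5 both were called on TPM too (adjusted p = 0.00543 and 0.0083), as was Krt84 without EY mouse 3 (adjusted p = 0.00592) or EY mouse 6 (adjusted p = 0.00887). The 9 interactions were smaller in size without EY mouse 3, from -3.68 to -1.98 with a median of -2.88. Over all alternatives the adjusted p of any of the 9 genes ran from 0.000694 to 0.586. In the main model the standard errors ran from 0.54 for Krt84 to 1.54 for Krt86.

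The other hard keratins were listed as Krt32, Krt39, Krt40, Krt82, Krt83 and Krt87, all of which passed the filter. In EY against N 4 of 6 were DEGs, all lower (5.71% of all genes), with a median log2 fold change of -3.09. With limma none was a DEG in Y (1.11% of all genes, lower) or in E (1.2%, in either direction). In Y 2 had an unadjusted p below 0.05, both lower (7.9% of all genes), and in E 0 had (14.8%, in either direction). Krt39 had a log2 fold change of -5.99 (standard error 0.73), Krt87 of -5.03 (0.69) and Krt83 of -4.63 (0.56), within the range of the members. Krt32, a type I keratin of the hair cuticle, was at 66.4 ± 14.2 TPM (SD, n = 5) for N, 49.2 ± 15.8 (n = 3) for Y and 23.0 ± 7.17 (n = 6) for EY epithelia. The log2 fold change of Krt32 in EY, -1.55 (standard error 0.21, adjusted p = 1.22e-05), was smaller than that of any of the 9 genes. Krt40 and Krt82 had means of at most 0.293 and 0.056 TPM in any group. Keratin-associated proteins, which crosslink hard keratins, were taken as the 29 genes whose symbols begin with Krtap. Any family members under other symbols are left out. Of these 29 genes, 25 were DEGs lower in EY than in N (5.71% of all genes). In Y, 1 was a DEG, lower (1.11% of all genes), and 20 had an unadjusted p below 0.05, all lower (7.9% of all genes). In E, 0 were DEGs (1.2% of all genes) and 4 had such a p (14.8% of all genes, in either direction). The 29 genes had median log2 fold changes of -7.96 in EY, -2.95 in Y and -0.97 in E. Their summed level was 29185 ± 11443 TPM for N, 31163 ± 16828 for E, 7178 ± 3247 for Y and 779.9 ± 516 for EY epithelia, with means above those of the hair-type keratins in each group.

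Transcription factors known from hard keratinization were listed as 8 genes, with a median log2 fold change of -2.0 in EY against N. Of these, 5 were DEGs lower in EY than in N (5.71% of all genes). With limma 0 of the 8 were DEGs in Y or E epithelia. In Y, 6 had an unadjusted p below 0.05, all lower (7.9% of all genes). In E, 1 had such a p (14.8% of all genes, in either direction). Hoxc13, which is required for normal hair and nail, was at 15.6 ± 6.20 TPM (SD, n = 5) for N, 15.9 ± 5.56 (n = 5) for E, 5.23 ± 1.28 (n = 3) for Y and 1.77 ± 0.816 (n = 6) for EY epithelia. Its log2 fold change was -3.08 (standard error 0.34, adjusted p = 1.12e-06) in EY and -1.48 (standard error 0.41, adjusted p = 0.0189) in Y epithelia. Msx2 (-2.65), Dlx3 (-2.19), Lef1 (-1.81) and Foxn1 (-1.36) were the other DEGs, and Msx1 (-3.13, adjusted p = 0.017), Prdm1 (-0.30) and Gata3 (0.36) were not. Of 10 partner proteins of hard keratin cells, 8 were DEGs lower in EY than in N (5.71% of all genes) and 1 was higher (12.6%). In Y, 3 were DEGs lower (1.11% of all genes). Tchh, the trichohyalin that binds keratin filaments in hair and papillae, was at 1133 ± 308 TPM for N, 363 ± 131 for Y and 161 ± 97.1 for EY epithelia, and was a DEG both for EY (-2.95) and for Y (-1.67, adjusted p = 0.00842). The desmosomal cadherin Dsg4 had log2 fold changes of -4.17 in EY and -2.65 in Y epithelia, Gprc5d was listed at 0 in every Y and EY mouse, and S100a3, which was higher in EY (1.27), had a mean of 1.05 TPM there.

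Soft keratins were listed by layer to set the hair-type keratins beside the rest of the epithelium. All 6 suprabasal keratins were DEGs lower in EY than in N (5.71% of all genes). Their median log2 fold change was -3.42, from -5.73 for Krt10 and -5.49 for Krt76 to -1.75 for Krt13 and -1.61 for Krt4. In Y epithelia 2 of the 6, Krt10 (-2.36) and Krt76 (-2.50), were DEGs lower (1.11% of all genes). Of the basal keratins, Krt14 (1.43) was a DEG higher and Krt15 (-1.27) a DEG lower in EY, and of 4 stress keratins Krt17 was a DEG, higher in EY (2.96) and in Y (2.10). Of all genes, 12.6% were DEGs higher in EY and 3.47% in Y. The hair-type keratins made up 6.49% ± 2.05 (SD, n = 5) of their own and the listed soft keratins' summed TPM for N, 8.57% ± 3.95 (n = 5) for E, 3.21% ± 1.75 (n = 3) for Y and 0.684% ± 0.539 (n = 6) for EY epithelia, where the highest EY value was 1.65% and the lowest N value 3.18%. The summed level of the 13 listed soft keratins was 138621 ± 27146 TPM for N and 82424 ± 13007 TPM for EY epithelia.

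**Figure D4:**
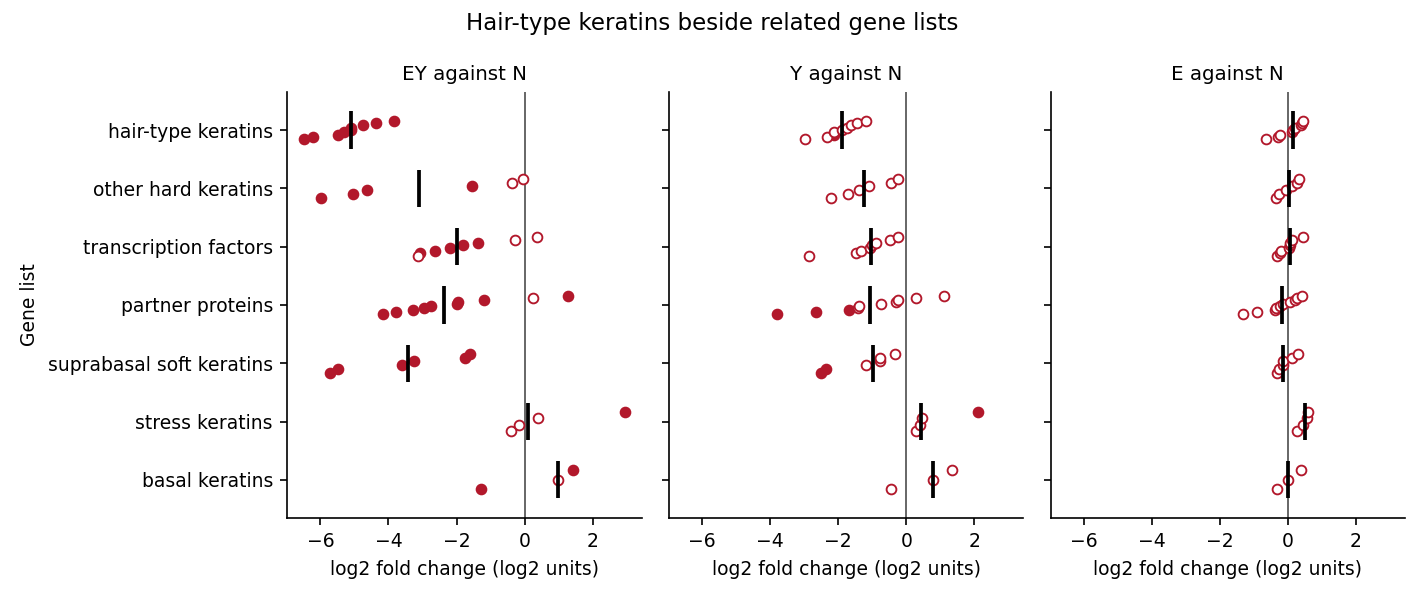
Log2 fold changes against N in EY, Y and E epithelia of the 9 hair-type keratins and of 6 related gene lists, with 1 point for each gene, filled for DEGs, and a black line at the median of each list. The median of the hair-type keratins is -5.11 for EY, -1.88 for Y and 0.15 for E epithelia, and that of the suprabasal soft keratins -3.42 for EY.

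Markers of the tissue and of other cell types were measured beside the hair-type keratins. All 7 markers of oral squamous epithelium were above 0 in every mouse, led by Krt13, with a summed level of 108808 ± 24404 TPM (SD, n = 5) for N, 97706 ± 20414 (n = 5) for E, 79940.1 ± 24143 (n = 3) for Y and 52652 ± 5453 (n = 6) for EY epithelia. In EY against N, 2 of the 7 were DEGs lower (Krt13 and Krt4) and 3 were DEGs higher (Epcam, Krt14 and Cdh1), against 5.71% and 12.6% of all genes. Of 9 genes listed as markers of the inner root sheath and companion layer of the hair follicle, 4 had a row. N mice had 2.95 to 12.4 TPM of them in sum, E mice 3.24 to 5.93, Y mice 7.89 to 16.4 and EY mice 2.42 to 8.97, most of it Krt75. With limma 0 of the 4 were DEGs against N, while 1 for EY, 2 for Y and 0 for E had an unadjusted p below 0.05. These were Krt73 in EY (log2 fold change -2.01), and Krt73 (-1.79) and Krt75 (1.32) in Y, in opposite directions. At 4.76 ± 2.53 TPM in N epithelia, Krt75 was far below Krt36 at 6870.2 TPM. Whether Krt75 measures hair follicle content in these samples was not tested.

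Skeletal muscle markers (8 genes, of which Acta1 had the highest mean over all mice) summed to a median of 67.3 TPM for N, 47.3 for E, 53.9 for Y and 221 for EY epithelia, and 1 of 8 was a DEG higher in EY, against 12.6% of all genes, while the log2 fold changes of all 8 lay between 1.29 and 2.05. Fibroblast markers (6 genes) had medians of 86.3, 82.5, 34.5 and 72.7 TPM in the same order. Dcn had the highest mean over all mice, but in EY Col3a1 (27.7 TPM) and Col1a1 (19.8 TPM) were above Dcn (13.8 TPM). In EY against N, 1 was a DEG, lower (5.71% of all genes), namely Dcn (log2 fold change -2.36), and the other 5 were at 0.32 to 1.08. Leukocyte markers (6 genes) were led by S100a8 by the mean over all mice. By the N and E means Lyz2 was higher (196 against 16.2 TPM and 171 against 31.1 TPM). The list had medians of 129.5, 247, 823 and 793 TPM. It had 2 DEGs higher in EY (12.6% of all genes) and 2 in Y (3.47% of all genes). Both times these were S100a8 (log2 fold change 4.75 in EY, 5.44 in Y) and S100a9 (4.80 and 5.89), while Cd3e (1.36 and 0.69), Ptprc (0.73 and -0.21), Cd74 (0.41 and -0.24) and Lyz2 (-0.28 and -2.74) were not DEGs. Taste bud markers (8 of 9 with a row) were led by Krt18 by the mean over all mice. Tas1r3 was higher by the N means (6.20 against 4.97 TPM) and by the E means (6.00 against 3.07 TPM). The list had medians of 12.1, 11.3, 11.2 and 168 TPM. In EY most of this was Krt18, the 1 DEG of the list against N, at a mean of 168 TPM against 4.97 in N, with Krt8 at 36.7 against 2.80 TPM (adjusted p = 0.0231), while the median log2 fold change of the 7 genes tested was 0.04, with Krt20 at -1.08, Plcb2 at -0.85, Tas1r3 at -0.59, Car4 at 0.04 and Trpm5 at 0.78, none of them DEGs. Endothelial markers (2 genes) were at medians of 0.327, 0.164, 0.153 and 0.536 TPM. By group means Cdh5 was the higher of them in N and E, and Pecam1 in Y and EY. Salivary gland markers (5 of 6 with a row) were at medians of 0.419, 0.154, 0.162 and 0.132 TPM. N mice 2 and 3 were at 45.5 and 83.8 TPM, mostly Dcpp1 (42.1 and 74.4 TPM), which was at 0 in every other mouse. The part of these other cells in the levels of the hair-type keratins was not tested.

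The profiles of the members over the 19 mice were compared by the root mean square difference (RMS) of log2(TPM + 0.1) after each gene was centred on its mean. Between members the nearest pair was Krt36 and Krt84, a type I and a type II gene on different chromosomes, at 0.34 log2 units, and the farthest was Krt84 and Krt86 at 1.62. Krt36 and Krt84 were also the most abundant gene of each type, while Krt86 was at 0 in EY mouse 3. How far these distances follow read depth and the 0.1 TPM added was not tested. Among 15595 other genes with a mean of at least 1 TPM, the 10 nearest to the mean profile of the members outside the Krtap symbols were Gm49425 (0.31), Krt87 (0.35), 2310061N02Rik (0.38), Krt83 (0.38), 2310034C09Rik (0.39), 2310079G19Rik (0.43), Lrrc15 (0.54), Krt39 (0.54), Gm5965 (0.58) and Miat (0.81). The members themselves lay 0.32 (Krt33a) to 0.88 (Krt86) from that mean. Of the 10 genes 3 are other hard keratins, while Lrrc15 encodes a membrane protein with leucine-rich repeats and Miat is a long noncoding RNA. Whether the remaining genes encode keratin-associated proteins under other symbols was not checked. Lrrc15 was at 69.7 TPM for N, 78.5 for E, 16.1 for Y and 2.94 for EY epithelia by its means, and Miat at 11.1, 9.71, 2.45 and 0.372 TPM. The nearest Krtap genes were Krtap3-3 (0.30), Krtap13-1 (0.39), Krtap27-1 (0.47), Krtap13 (0.55) and Krtap3-1 (0.56).

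Related keratins share stretches of sequence, so reads can be shared between them. Of all stretches of 50 bases in the transcripts of GENCODE vM21, Krt84 shared none and Krt36 0.432% with any other gene, and Krt35 shared 2.74%. The share was 28.1% for Krt31, 17.8% for Krt33a, 24.2% for Krt33b and 33.1% for Krt34, mostly with each other, and 37.7% for Krt81 and 43.3% for Krt86, mostly with each other and with Krt83 and Krt87. How such reads were assigned is not given in the sources used here, so the levels of these 6 genes are uncertain against each other, while those of Krt84, Krt36 and Krt35 are little touched by it.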

How the data were processed

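According to its methods, the study isolated polyA RNA from whole tongue epithelium, and the authors used STAR 2.7.9, SAMtools 1.7 and HTSeq 0.13.5 on the build GRCm39, with DESeq2 1.34.0 for the tests of the paper by the authors. The authors deposited the values in TPM, which sum to 1000000 in each mouse. How counts became TPM is not given in the sources used here. The TPM from Kallisto in the methods, on the human transcriptome, were made for gene set enrichment. Groups follow the titles of the samples.

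Whole reads were recovered from TPM for all 24680 genes above 0, each gene being whole multiples of 1 step. A filter kept 22745 genes that reached 0.1 TPM in 3 or more mice. limma 3.58.1 (R 4.3.3, lmFit, eBayes with trend) compared them on log2(TPM + 0.1), with 1 model for all 19 mice. The read recovery and the model were tested on simulated data. Named genes are the members, the listed genes and the 10 genes and up to 5 Krtap genes nearest in profile. The members and lists were chosen with earlier results of these data known. Alternatives were other pseudocounts, filters, scalings and thresholds, robust eBayes, limma voom on the recovered reads, only the N mice of the driver genotype, a block for the mouse number, a model of just the groups compared and leaving out each mouse. No batch is given in the labels. Python 3.11.15, numpy 2.4.6, pandas 2.3.3, scipy 1.17.1 and matplotlib 3.10.9 were used, with promoters from RefSeq (GRCm38.p6).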

Additional observations from a re-analysis of the deposited data

Results flagged for a closer look

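The level of Krt35 in EY mouse 5, 18.4 TPM, stood apart from the other 5 EY mice, which had 4.39 to 8.72 TPM. Its gap to the nearest of them was 0.69 of the whole range of the group, above the 95% critical value of Dixon for 6 mice. It was 1 of 36 groups of values examined (the 9 genes, their summed TPM, the ratio of type I to type II and the share of Krt36, each in N, E and EY), and chance flags about 1 in 20 groups. EY mouse 5 also had the highest Krt36 of its group, at 849.9 TPM.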

How the results depend on the processing

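All 9 hair-type keratins were DEGs in EY against N and in EY against E under each of 32 alternatives, with log2 fold changes from -7.11 to -3.59 and from -7.27 to -4.05. In E against N none was a DEG under any of them, and the log2 fold changes that changed sign were those of Krt33a (-0.0044 after quantile normalization and -0.30 to 0.36 without 1 mouse, below 0 without N mouse 3, E mouse 1 or E mouse 4), Krt34 (-0.20 to 0.45 without 1 mouse, below 0 without N mouse 3 or E mouse 1) and Krt86 (-0.0103 after quantile normalization and -0.25 to 0.39 without 1 mouse, below 0 without N mouse 3, E mouse 1 or E mouse 4).

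In Y against N, 0 in place of 1 of the 9 genes were DEGs with only the 3 N mice of the driver genotype, with only the groups compared and with the mouse number as a block, and 0 to 1 without 1 mouse. In EY against Y, 0 in place of 4 were DEGs with only the groups compared, 7 at an adjusted p below 0.05, and 1 to 5 without 1 mouse. Krt31 was not among them without a filter (adjusted p = 0.0102), with the 3 N mice (0.0162) or with limma voom (0.0221), nor without any 1 of 15 of the 19 mice, while Krt81 was with limma voom (0.00922), Krt86 with a pseudocount of 1 TPM (0.00975) and Krt34 with the block (0.00988) or without EY mouse 6 (0.00944). For the interaction, 1 in place of 0 was called with a pseudocount of 0.01 TPM, a filter at 1 TPM and quantile normalization, 2 at an adjusted p below 0.05, 2 with limma voom, and 0 to 2 without 1 mouse. With fewer mice or a filter on more genes, the number of mice or of genes tested differs by construction, and otherwise the cause was not tested.

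Whether the mouse numbers of the titles pair the mice is not given in the labels. Of 24 pairs with an equal number none correlated above 0.1. Their median was 0.012, against -0.0075 for pairs of other numbers, and 6 of 19 mice correlated best with an equal number. Such correlations cannot settle whether mice of an equal number belong together. With the number as a replicate block, 9 genes were DEGs in EY against N, 0 in Y against N, 0 in E against N, 5 in EY against Y, 9 in EY against E and 0 in the interaction.

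Over all genes, the number of DEGs moved by over 1.5 times from 4157 to 7248 (EY against N) and from 2914 to 5746 (EY against E) without a limit on the fold change. In Y against N it moved from 1042 to 656 with the 3 N mice, 555 with only the groups compared, 1599 at an adjusted p below 0.05, 1935 without the limit and 639 without Y mouse 3. In E against N it moved from 274 to 145 with only the groups compared and 414 at 0.05, in EY against Y from 454 to 198, 865 and, without the limit, 803, with 200 to 496 without 1 mouse, and for the interaction from 40 to 148 at 0.05, 118 with limma voom and 28 to 73 without 1 mouse. Depth limits Krt33a, Krt33b, Krt34, Krt81 and Krt86 in EY mice, where some had fewer than 10 reads.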
